A study of Mus musculus with 12 samples.

Results

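The liver genes described here are the 10 genes Cyp7a1, Cyp8b1, Cyp27a1, Cyp7b1, Slc27a5, Baat, Slc10a1, Abcb11, Nr1h4 and Nr0b2, which make, conjugate, carry and sense bile acids. They were chosen by gene symbol from the 16821 genes listed, by a rule that uses no measured value. Earlier results of these data were known when they were chosen. All 10 passed the filter on low values (at least 1 FPKM in at least 6 mice). RNA was sequenced from the livers of 12 adult male C57BL/6J mice, a wild-type inbred strain, bought at 8 weeks of age and adapted for 1 week. The 6 mice of the chronic exercise (Exe) group were trained by treadmill running of moderate intensity, 60 min per day on 5 days per week for 6 weeks. The 6 mice of the sedentary control (Con) group were kept in the same room without treadmills. All mice had food and water at will. Tissue was taken within 24 h after the last run, in the dark phase by the study's methods, and the hour of each mouse is not given in the sources used here. Livers were perfused with saline and sampled away from the large vessels and bile ducts, and outliers had been excluded by principal component analysis, so the mice kept are a screened set. No transgene, deletion or drug is named in the labels. The question addressed here is whether liver RNA of bile acid genes differed between trained and sedentary mice.

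Values are FPKM (fragments counted on a transcript, scaled to its length and to the number of fragments mapped in the mouse), so levels can be compared between genes per length. The depth in reads is unknown. Summed FPKM ranged from 735200 to 820107 per mouse, and relative depth, estimated from 33 genes with FPKM in whole steps, ranged from 0.987 to 1.03. Defining hepatocyte markers were present in every mouse, with a summed level of 66430 to 81790 FPKM in the Con group and 72860 to 88080 FPKM in the Exe group, Alb (albumin) being the highest of the 10. Of the 12 bile duct markers, 4 passed the filter on low values, and the sum of all 12 was 80.8 to 121.6 FPKM in Con mice and 63.1 to 115.2 FPKM in Exe mice, Spp1 being the highest. The duct marker Krt19 was at 18.07 FPKM in Con 6, against 0.36 to 5.5 FPKM in the other mice, and Cftr did not exceed 0.05 FPKM. Muc1, Tff2, Epcam and Krt7 were also highest in Con 6, at 11.21, 7.88, 3.29 and 3.05 FPKM. In the other mice they reached at most 4.02, 0.75, 1.34 and 0.88 FPKM. Exe 4 was next highest for Krt19 (5.5 FPKM) and Muc1 (4.02 FPKM). The 4 duct markers that passed the filter were highest in mice other than Con 6. In bulk liver, fewer cells of a type and less RNA per cell cannot be told apart. Acute-phase genes varied widely, with a summed level of 11730 to 50010 FPKM in Con (median 27940) and 11920 to 51620 FPKM in Exe mice (median 16600), highest in Con 1 and Exe 5. Of the 14 genes, 13 had a log2 fold change below 0 (median of the 14 -0.26), and 0 of these passed an unadjusted p of 0.05 by limma. The remaining gene, Crp, was higher in Exe with a log2 fold change of 0.20. It passed the unadjusted threshold (p = 0.0179 and adjusted p = 0.793 from limma, exact permutation p = 0.00866). Tests across mice measure the spread between these 12 animals.

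Bile acids are made from cholesterol in hepatocytes, by a classical route that Cyp7a1 opens and an alternative route that Cyp27a1 and Cyp7b1 serve. They are conjugated to taurine or glycine, exported into bile by Abcb11, taken up again in the ileum and returned to the hepatocyte through Slc10a1. Bile acids bind the nuclear receptor FXR (Nr1h4), which induces Nr0b2 (SHP) and Abcb11, and SHP, together with ileal Fgf15, lowers transcription of Cyp7a1 and Cyp8b1, a feedback loop that also follows feeding and the clock.

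Promoters of 3 of the genes are shown because their products belong to this loop, and because Cyp8b1 and Nr0b2 had the highest correlation among the 45 pairs of the 10 genes. RefSeq sequences of the build GRCm38.p6 were matched by symbol for 6 of the 10 genes, and each run holds the 250 bases before the transcription start, on the gene's own strand, 5′ to 3′. Capitals mark the motifs found. The Cyp8b1 promoter (chr9:121916306-121916555, minus strand) held CAAAGTCCA, a sequence of the type that HNF4A binds, 67 bases before the start, and 0.387% of the 32536 distinct promoters of this length held it on either strand. The Nr0b2 promoter (chr4:133553126-133553375, plus strand) held TCAAGG, the core of the site of LRH-1 (Nr5a2), at 68 and at 35 bases before the start, and the E-box CACGTG at 195 bases. TCAAGG was in 12.4% and CACGTG in 6.04% of all promoters. The Abcb11 promoter (chr2:69342617-69342866, minus strand) held GGCCATTGACC, 62 bases before the start. It matches a shortened and looser form of the inverted repeat that FXR binds with RXR, namely GGNCA, 1 base of any kind and TGACC. The N in GGNCA is any base, and Abcb11 holds C there, where the full repeat has T. On either strand, 0.2% of promoters held this form. The full repeat, AGGTCA followed after 1 base by its reverse complement TGACCT, contains the shortened form, and was in 2 promoters (0.00615%) and in none of the 6 matched genes. The promoters of the other matched genes, Cyp27a1, Slc10a1 and Nr1h4 (FXR, also part of the loop), held none of the motifs searched and are not shown. The motifs were chosen with the sequences in view, and a match is a description of letters, not of binding.
Cyp8b1: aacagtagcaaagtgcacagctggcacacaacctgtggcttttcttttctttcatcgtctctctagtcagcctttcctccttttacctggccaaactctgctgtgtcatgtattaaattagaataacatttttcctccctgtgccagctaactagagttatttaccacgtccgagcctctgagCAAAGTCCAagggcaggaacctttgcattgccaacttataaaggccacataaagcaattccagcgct
Nr0b2: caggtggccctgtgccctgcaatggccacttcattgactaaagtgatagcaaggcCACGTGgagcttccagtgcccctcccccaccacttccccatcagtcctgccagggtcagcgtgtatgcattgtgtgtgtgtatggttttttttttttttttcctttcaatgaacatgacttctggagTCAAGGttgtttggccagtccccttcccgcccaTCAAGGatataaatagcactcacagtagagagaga
Abcb11: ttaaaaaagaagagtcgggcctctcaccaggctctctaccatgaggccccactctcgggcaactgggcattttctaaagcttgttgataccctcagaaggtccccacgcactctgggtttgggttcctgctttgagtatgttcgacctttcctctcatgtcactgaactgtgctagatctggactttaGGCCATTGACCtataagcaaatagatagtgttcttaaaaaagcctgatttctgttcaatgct

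None of the 10 genes passed the test between groups after adjustment over all genes. With limma on log2(FPKM + 1), a linear model with moderated variances, 0 of 10 passed an adjusted p of 0.05, where 0 of 10241 genes tested did (0%, smallest adjusted p from limma 0.519). At an unadjusted p of 0.05, 1 of 10 passed, Baat, against 636 of all genes (6.21%) by limma and 634 (6.19%) by the exact permutation test. Of the 636, 68.7% were higher in Exe. Under other scalings this share was 56.4% of 617 genes with quantile normalization, 56.3% of 629 with median-of-ratios scaling and 88.0% of 777 with FPKM rescaled to an equal sum per mouse. The estimated log2 fold change (Exe minus Con) was above 0 for 6 genes and below 0 for 4, against 57.5% of all genes above 0, and its median was 0.065 against 0.016 over all genes. The 2 groups overlapped for each of the 10 genes. All 26 genes of the whole table whose groups did not overlap (0.254%) lay elsewhere.

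**Figure D1:**
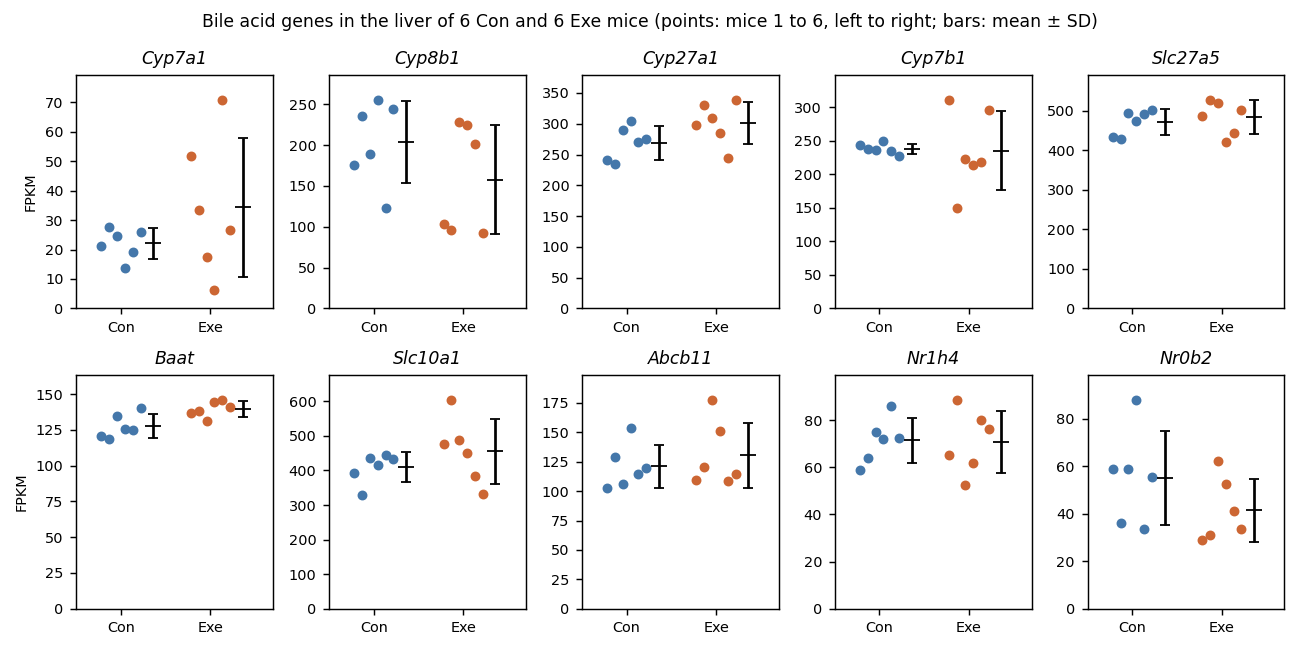
FPKM (linear axis from 0) of each gene in each mouse, with Con in blue and Exe in orange, mice 1 to 6 from left to right, and bars for the mean ± SD of 6 mice. Groups overlapped in every panel, Cyp7a1 and Cyp7b1 spread more widely among Exe than Con mice, and the Exe mice were split between low and high values for Cyp8b1.

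Levels differed more than 10-fold between genes. By mean FPKM over the 12 mice, the order from the top was Slc27a5 at 477.6, Slc10a1 at 432.4, Cyp27a1 at 285, Cyp7b1 at 236, Cyp8b1 at 181, Baat at 134, Abcb11 at 126, Nr1h4 at 71.1, Nr0b2 at 48.3 and Cyp7a1 at 28.2. Thus Cyp7a1, the rate-limiting enzyme of the classical route, had the lowest RNA level of the 10. Only Abcb11 exceeded its next lower neighbour, Nr1h4, in all 12 mice. Slc10a1 exceeded Cyp27a1 in 11 of 12 mice, and both Slc27a5 over Slc10a1 and Nr1h4 over Nr0b2 held in 10 of 12. The remaining neighbours kept their order in only 8 or 9 of 12 mice, which is within the spread of single mice. They were Cyp27a1 over Cyp7b1, Cyp7b1 over Cyp8b1, Cyp8b1 over Baat, Baat over Abcb11, and Nr0b2 over Cyp7a1. Genes farther apart in the order could be fully separate. For example, the lowest Cyp27a1 level (234.08 FPKM in Con 2) exceeded the highest Baat level (145.96 FPKM in Exe 5).

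Cyp7a1 was the most variable of the 10 genes. In Con mice 1 to 6 its level was 21.4, 27.6, 24.6, 13.7, 19.2 and 26.1 FPKM. In Exe mice 1 to 6 it was 51.8, 33.3, 17.5, 6.1, 70.9 and 26.8 FPKM. Thus 3 Exe mice lay above all Con mice and Exe 4 lay below all of them. The means were 22.1 ± 5.15 FPKM in Con and 34.4 ± 23.6 FPKM in Exe (SD, n = 6 each), and the medians were 23.0 and 30.03 FPKM. The log2 fold change was 0.31 (SE 0.44, 95% confidence interval -0.63 to 1.25), with an adjusted p of 0.953 from limma and an exact two-sided permutation p of 0.561. Without Exe 5, the log2 fold change was 0.036, and without Exe 4 it was 0.70, when Cyp7a1 passed the unadjusted threshold. The interval allows a change of more than 2-fold upward, so a moderate change in this gene was not detectable with 6 mice per group. The highest Cyp7a1 level lay in Exe 5, one of the mice with the highest acute-phase genes. Over the 12 mice, Cyp7a1 and the mean log2 level of 14 acute-phase genes had r = 0.48 (permutation p = 0.118) and rho = 0.43 (p = 0.161), and without Con 1 and Exe 5 r was 0.38 (permutation p = 0.301) and the log2 fold change of Cyp7a1 was 0.033.

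The spread of Cyp7a1 was larger in Exe mice. Its coefficient of variation was 23.3% in Con and 68.6% in Exe, and its highest value was 2.02 times the lowest in Con and 11.6 times in Exe. Its SD within groups, on the log2 scale, stood at percentile 99.5 of all genes tested. The SD in Exe was larger than in Con by 1.74 on the log2 scale (exact permutation p = 0.0801 for the deviations from the group medians, and 1 after adjustment over all genes). This ratio was between 1.11 without Exe 4 and 2.53 without Con 4, with exact p-values from 0.0433 to 0.156 when each mouse was left out in turn. The test of spread was added after the values were seen. With it, 4.36% of all genes passed an unadjusted p of 0.05, 2.77% being wider in Exe, and 0 genes passed after adjustment. Of the 10 bile acid genes, 8 had a larger SD in Exe, against 54.8% of all genes.

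Cyp8b1, the hydroxylase that directs synthesis to cholic acid, was split between low and high values among Exe mice. In Con mice 1 to 6 its level was 176, 235, 189, 256, 123 and 244 FPKM. In Exe mice 1 to 6 it was 104, 95.8, 228, 224, 201 and 92.6 FPKM. The 3 low Exe mice lay below all Con mice, and the 3 high Exe mice lay within the Con range. Mean levels were 204 ± 50.7 FPKM in Con and 158 ± 66.7 FPKM in Exe (SD, n = 6 each). Its log2 fold change was -0.44 (SE 0.27, 95% confidence interval -1.01 to 0.13; adjusted p = 0.872 from limma, exact permutation p = 0.165). Its spread differed at an unadjusted exact permutation p of 0.0216, with the log2 SD larger by 0.68 in Exe, but not after adjustment over all genes (adjusted p = 0.949). Without Con 5, the lowest Con mouse, Cyp8b1 passed the unadjusted threshold of limma with a log2 fold change of -0.58, and its adjusted p stayed above 0.05.

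Of the alternative route, Cyp27a1, the mitochondrial sterol hydroxylase that starts it, was at 234 to 305 FPKM in Con (median 273) and 244 to 339 FPKM in Exe (median 304). In 5 of 6 Exe mice it exceeded the Con median, and in 3 it exceeded all Con mice. Its log2 fold change was 0.16 (SE 0.088, 95% confidence interval -0.032 to 0.35; adjusted p = 0.851 from limma, exact permutation p = 0.117). Without Exe 5 it was 0.22, and the gene passed the unadjusted threshold, as it did without Con 4 and without both Con 1 and Exe 5. Across the 12 mice, the acute-phase mean ran against Cyp27a1 (r = -0.64, permutation p = 0.0273, and Spearman's rho = -0.53, p = 0.0813). Without Con 1 and Exe 5, r was -0.40 (permutation p = 0.257), and its adjusted p over 30 such relations was 0.294. Within each group r was -0.64, with exact permutation p-values of 0.158 in Con and 0.182 in Exe.

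Cyp7b1, the oxysterol hydroxylase of the alternative route, was nearly level among Con mice, at 227 to 249 FPKM with a coefficient of variation of 3.17%. Among Exe mice it ranged from 149.7 FPKM in Exe 2 to 311 FPKM in Exe 1, with 296 FPKM in Exe 6 and 214 to 222 FPKM in the other 3. Thus 2 Exe mice lay above and 4 below all Con mice, and none within their range. The log2 fold change was -0.055 (SE 0.14, 95% confidence interval -0.35 to 0.24; adjusted p = 0.970 from limma), and it was 0.067 without Exe 2. The SD on the log2 scale was larger in Exe by 3.06 log2 units, the largest such ratio of the 10, with an exact permutation p of 0.123 and an adjusted p of 1.

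Of the conjugating enzymes, Baat, the acyltransferase that joins bile acids to taurine or glycine, was the gene past the unadjusted threshold. It was at 119 to 141 FPKM in Con (median 125) and 131 to 146 FPKM in Exe (median 139.7). All 6 Exe mice exceeded the Con median, and 3 exceeded all Con mice. The means were 128 ± 8.41 and 139.7 ± 5.32 FPKM (SD, n = 6 each), a ratio of 1.10. The log2 fold change was 0.13 (SE 0.053, 95% confidence interval 0.018 to 0.25; unadjusted p = 0.026 and adjusted p = 0.793 from limma, exact permutation p = 0.0173). Baat varied little, with a within-group SD at percentile 5.58 of all genes. The call at the unadjusted threshold was lost with quantile normalization, where the log2 fold change was 0.078, and without Con 1, Con 2, Exe 4 or Exe 5, where it was 0.11 to 0.12. It was also lost without both Con 1 and Exe 5, where the log2 fold change was 0.10. The hepatocyte markers, 8 of 10 with a log2 fold change above 0, also had a higher median sum in Exe (87100 against 74100 FPKM). The exact permutation p for the log2 sum was 0.0195. The largest part of that sum was Alb, with a mean of 34840 FPKM in Con and 43908 FPKM in Exe. The median log2 fold change of the 10 markers was 0.033. At an unadjusted p of 0.05 by limma, 2 passed higher in Exe, Alb (0.34) and Cps1 (0.29), against 4.27% of all genes. In the other direction 1 passed, Tat (tyrosine aminotransferase, -0.55), against 1.94% of all genes. None passed after adjustment (smallest adjusted p from limma 0.777). The part of the hepatocyte markers in the result was not tested.

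Slc27a5, the ligase that activates bile acids for conjugation, had the highest level of the 10. It was at 429 to 503 FPKM in Con (median 484) and 421 to 529 FPKM in Exe (median 495), with a log2 fold change of 0.035 (SE 0.071, 95% confidence interval -0.12 to 0.19; adjusted p = 0.962 from limma). Under quantile normalization it was -0.039, so no direction can be given.

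Of the transporters, Slc10a1 (NTCP), which takes bile acids up from portal blood, was at 330.4 to 446 FPKM in Con (median 425) and 332 to 604 FPKM in Exe (median 462). In 4 Exe mice it exceeded all Con mice, and in Exe 5 and Exe 6 it was at 384 and 332 FPKM. The log2 fold change was 0.14 (SE 0.13, 95% confidence interval -0.13 to 0.40; adjusted p = 0.931 from limma, exact permutation p = 0.348). Abcb11 (BSEP), the canalicular export pump, was at 103 to 154 FPKM in Con (median 117) and 109 to 178 FPKM in Exe (median 118), the highest being Exe 3. Its log2 fold change was 0.095 (SE 0.13, 95% confidence interval -0.18 to 0.37; adjusted p = 0.950 from limma), and 0.0013 without Exe 3.

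Of the regulators, Nr1h4 (FXR) was at 59.0 to 86.1 FPKM in Con (median 72.2) and 52.4 to 88.6 FPKM in Exe (median 70.8). The log2 fold change was -0.025 (SE 0.12, 95% confidence interval -0.29 to 0.24; adjusted p = 0.986 from limma), the smallest of the 10 in size, and it was 0.012 with FPKM rescaled to an equal sum per mouse. Nr0b2 (SHP), the repressor that FXR induces, was at 33.4 to 88.0 FPKM in Con (median 57.1) and 28.8 to 62.2 FPKM in Exe (median 37.4). Con 4 was the highest mouse, 1 Exe mouse exceeded the Con median, and Exe 1 and Exe 2 lay below all Con mice. Its log2 fold change was -0.38 (SE 0.24, 95% confidence interval -0.89 to 0.12; adjusted p = 0.878 from limma, exact permutation p = 0.190). Without Con 5 it was -0.51 and passed the unadjusted threshold, as it did without Exe 3.

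**Figure D2:**
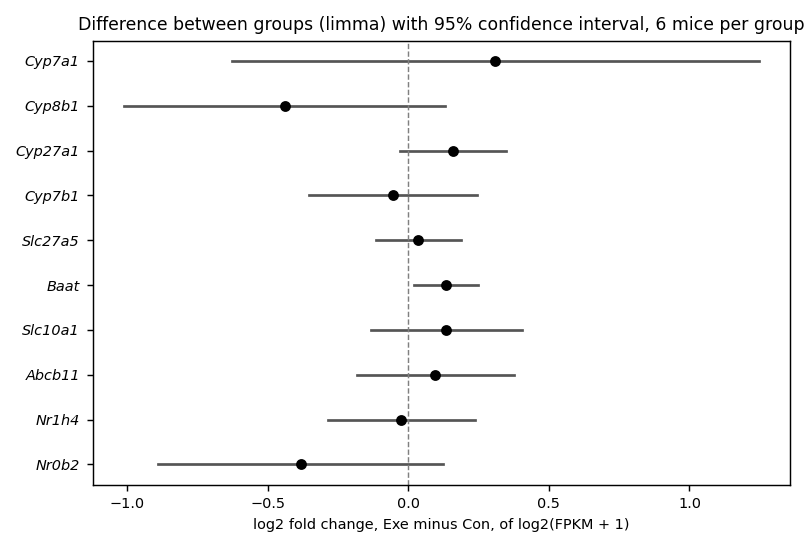
Log2 fold change (Exe minus Con, of log2(FPKM + 1)) of the 10 genes from limma, with points for estimates and bars for 95% confidence intervals over 6 mice per group. The interval of Baat alone (0.018 to 0.25) lies off 0, and those of Cyp7a1, Cyp8b1 and Nr0b2 are the widest.

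Ratios of FPKM within a mouse do not depend on scaling between mice, and 5 were compared. The tests used FPKM + 1, where scaling does not cancel fully, least so for low genes such as Cyp7a1. The ratio of Cyp8b1 to Cyp7a1 was 6.40 to 18.7 in Con (median 8.37). In Exe mice 1 to 6 it was 2.01, 2.88, 13.1, 36.8, 2.84 and 3.46 (median 3.17). Thus 4 Exe mice lay below all Con mice and Exe 4 lay above them. The difference in the mean log2 ratio, computed on FPKM + 1, was -0.75 (exact permutation p = 0.290, adjusted p = 0.548 over the 5 ratios). It ranged from -1.27 without Exe 4 to -0.47 without Exe 1. Cyp7a1 to Cyp7b1, the classical against the alternative hydroxylase, was 0.0549 to 0.116 in Con and 0.0284 to 0.326 in Exe (log2 difference 0.36, exact permutation p = 0.496). Nr0b2 to Nr1h4, the target against its receptor, was 0.388 to 1.22 in Con and 0.348 to 1.19 in Exe, with a log2 difference of -0.36 (exact permutation p = 0.329). Baat to Slc27a5 was 0.253 to 0.279 in Con and 0.253 to 0.343 in Exe (log2 difference 0.097, exact permutation p = 0.264). Abcb11 to Slc10a1, export against uptake, had a log2 difference of -0.041 (exact permutation p = 0.831). None passed before or after adjustment.

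Among the 45 pairs of the 10 genes, compared over the 12 mice on log2(FPKM + 1), 4 passed an unadjusted permutation p of 0.05 by Pearson's r, 3 by Spearman's rho, and 0 after adjustment (smallest adjusted p 0.162 by r and 0.448 by rho). The r ranged from -0.61 to 0.77 and was above 0 for 20 pairs. Cyp8b1 and Nr0b2 had the highest r, 0.77 (permutation p = 0.00398, adjusted p = 0.162), with rho = 0.69 (p = 0.0155). The sign was positive, whereas in the loop described above SHP lowers transcription of Cyp8b1. The reason for this sign was not tested. The 4 mice with the lowest Cyp8b1, namely Exe 1, Exe 2, Exe 6 and Con 5, were also the 4 with the lowest Nr0b2. Without Exe 2 and Exe 6, the mice farthest from the median of Cyp8b1, r was 0.71 (permutation p = 0.0181). Within the Con group r was 0.56 (exact permutation p = 0.233). Within the Exe group r was 0.91 (exact permutation p = 0.025), where Cyp8b1 lay in separate low and high values of 3 mice each and Nr0b2 ran from 28.8 to 62.2 FPKM without such a gap.

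Cyp27a1 and Slc27a5 had the next highest r (r = 0.74, permutation p = 0.0072, adjusted p = 0.162, and rho = 0.67, p = 0.0199). Without Con 1 and Con 2, r was 0.57 (permutation p = 0.0860). Within groups r was 0.79 in Con (exact permutation p = 0.0847) and 0.75 in Exe (exact permutation p = 0.0819). Cyp7a1 ran against Abcb11 (r = -0.61, permutation p = 0.0345, and rho = -0.45, p = 0.146), and without Exe 4 and Exe 5 r was -0.54 (permutation p = 0.118). Cyp7b1 ran against Slc10a1 (r = -0.59, permutation p = 0.0466, and rho = -0.43, p = 0.167), and without Exe 1 and Exe 2 r was -0.62 (permutation p = 0.0547). Cyp7a1 against its repressor Nr0b2 passed by rank alone (rho = -0.64, permutation p = 0.0312, and r = -0.53, p = 0.0717), and r was -0.76 without Exe 4 and Exe 5 (permutation p = 0.00756). The adjusted p over the 45 pairs was 0.512 for the r of each of these last 3 pairs. Cyp7a1 and Cyp8b1, both targets of SHP, had an r of -0.38.

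**Figure D3:**
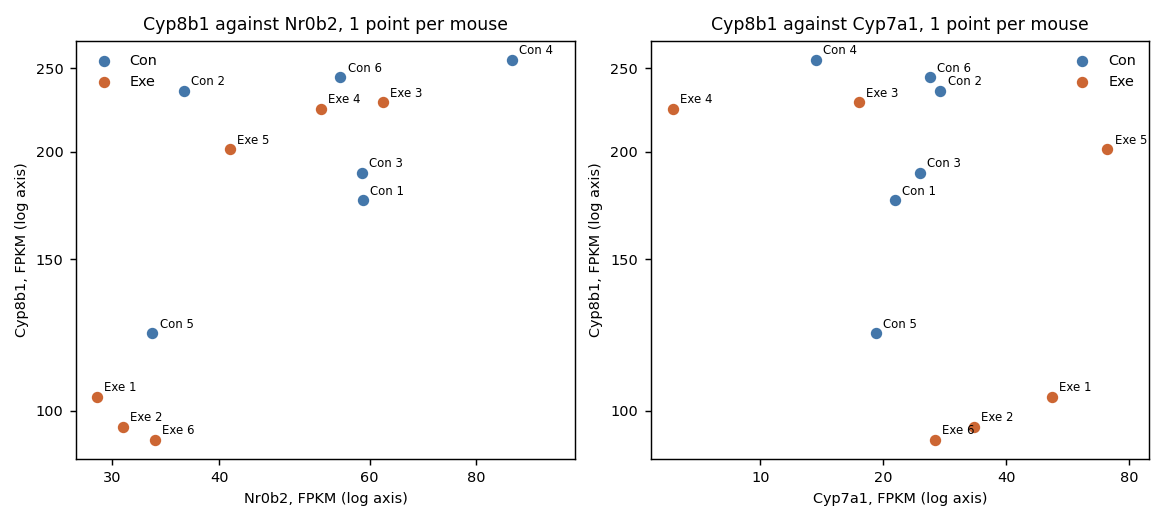
Cyp8b1 against Nr0b2 (left) and against Cyp7a1 (right), in FPKM on log axes, with a point per mouse, Con in blue and Exe in orange. Exe 1, Exe 2, Exe 6 and Con 5 are lowest for both Cyp8b1 and Nr0b2 (r = 0.77 over 12 mice), while Exe 4 and Con 4 hold the lowest Cyp7a1 levels beside high Cyp8b1.

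**Figure D4:**
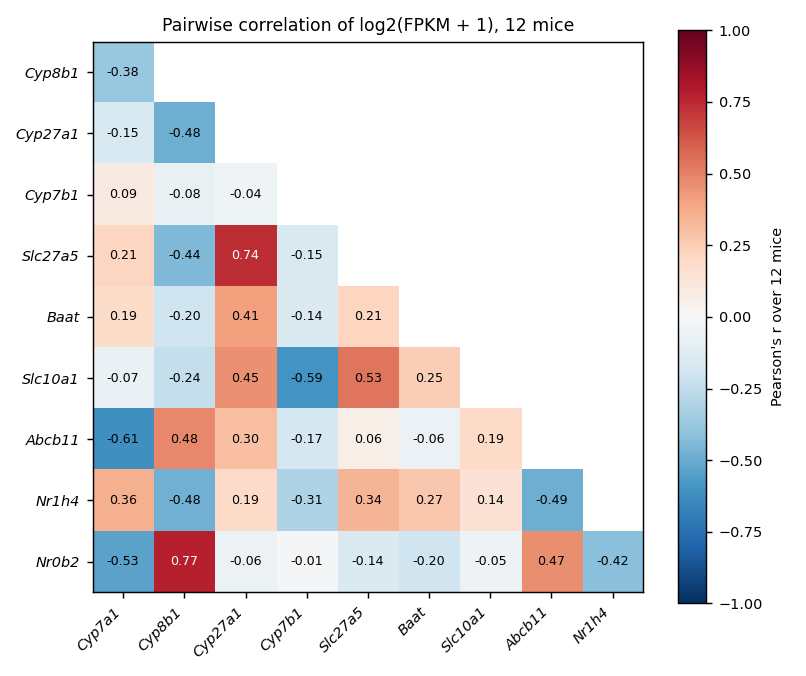
Pearson's r of log2(FPKM + 1) over 12 mice for the 45 pairs of bile acid genes, as a colour scale from -1 (blue) to 1 (red) with each value printed. Cyp8b1 with Nr0b2 (0.77) and Cyp27a1 with Slc27a5 (0.74) are highest, and Cyp7a1 with Abcb11 (-0.61) is lowest.

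Bile acid synthesis follows the clock, so 2 clock genes were set beside the 10 genes after their values had been seen. Nr1d1 (REV-ERBα), a clock repressor, was at 34.6 to 89.6 FPKM in Con and 13.4 to 60.7 FPKM in Exe, lowest in Exe 6 and highest in Con 4. These are also the mice with the lowest and highest Cyp8b1. Over the 12 mice, Nr1d1 and Cyp8b1 had r = 0.66 (permutation p = 0.0107) and rho = 0.74 (p = 0.00786), with an adjusted p of 0.294 by r and 0.236 by rho over the 30 relations of the 10 genes with Nr1d1, Dbp and the acute-phase mean. Without Con 4 and Exe 6, r was 0.42 (permutation p = 0.239). Within groups r was 0.38 in Con (exact permutation p = 0.471) and 0.72 in Exe (exact permutation p = 0.0319). For Nr0b2 the r with Nr1d1 was 0.61 (permutation p = 0.0295, and rho = 0.62, p = 0.0370), and 0.45 without the same mice (permutation p = 0.182). Dbp, a clock output gene, ran against Abcb11 (r = -0.58, permutation p = 0.0445, and rho = -0.43, p = 0.160), with r = -0.47 without Exe 3 and Exe 6 (permutation p = 0.172). In all, 4 of the 30 relations passed an unadjusted permutation p of 0.05 by r, and 0 after adjustment. Since the hour of sampling is not known per mouse, its part in these results was not tested. The summed level of 16 clock genes was 158 to 279 FPKM in Con and 153 to 254 FPKM in Exe. Of the 15 tested, 6 had a log2 fold change above 0 and 9 below. By limma 1 passed an unadjusted p of 0.05, lower in Exe, where 1.94% of all genes passed in that direction. This was Bhlhe41 (log2 fold change -0.40, p = 0.0191 and adjusted p = 0.793 from limma, exact permutation p = 0.0390).

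The genes with the pattern most like each of 4 bile acid genes were named by the highest r over the 12 mice among the other 10240 genes tested, as a description. Picking the highest of 10240 raises r by itself, and these r values were not tested. For Cyp7a1 they were Mtrf1, a mitochondrial translation release factor (r = 0.91), Steap4, a metalloreductase (0.90), and Lrrc59, a protein of the endoplasmic reticulum membrane (0.89). For Cyp8b1 they were Smagp, a small transmembrane protein (r = 0.94), Plxna2, a semaphorin receptor (0.92), and Arsg, a lysosomal sulfatase (0.91). For Nr0b2 they were Gpr19, an orphan receptor (r = 0.91), Zfp36, which promotes mRNA decay (0.91), and Hsd17b2, a steroid dehydrogenase (0.89). For Slc10a1 they were the kinase Araf (r = 0.90), the Golgi protein Yipf3 (0.88) and Cutc (0.86). Plxna2 and Gpr19 were low, at 0.77 to 1.91 and 1.4 to 2.87 FPKM. None of the 10 bile acid genes was among the 3 most like any of these 4.

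Other genes of the pathway were compared in 3 lists, which were chosen with earlier results of these data known. Of 15 other synthesis genes, 13 were tested, 7 with a log2 fold change above 0 and 6 below (median 0.014). At an unadjusted p of 0.05 by limma, 4 passed, all higher in Exe, where 4.27% of all genes passed in that direction, and 0 passed after adjustment. Cyp39a1, another oxysterol hydroxylase, was at 4.39 to 6.43 FPKM in Con (median 5.21) and 5.71 to 10.6 FPKM in Exe (median 8.56), with 5 Exe mice above all Con mice. Its log2 fold change was 0.56 (SE 0.13, exact permutation p = 0.00649, adjusted p = 0.580 from limma). Cyp2c70, which makes the muricholic acids of rodents, had a log2 fold change of 0.54 (SE 0.15, exact permutation p = 0.00866, adjusted p = 0.708 from limma), from 333 to 502 FPKM in Con and 395 to 802 FPKM in Exe. Akr1d1, the reductase of the steroid ring, had a log2 fold change of 0.35 (SE 0.12, exact permutation p = 0.0346, adjusted p = 0.793 from limma). For Acox2, the peroxisomal oxidase that shortens the side chain, it was 0.21 (SE 0.072, exact permutation p = 0.0195, adjusted p = 0.793 from limma). Each of these 4 passed the unadjusted threshold, with the same direction, under all 21 alternatives. Hsd3b7, which follows Cyp7a1 in the route, had -0.11 (SE 0.10). Ch25h and Cyp46a1, a pair of enzymes that make oxysterols, were too low to be tested.

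Of 18 other transport genes, 15 were tested, 5 with a log2 fold change above 0 and 10 below (median -0.030), and 1 passed an unadjusted p of 0.05, lower in Exe, where 1.94% of all genes passed in that direction. This was Abcb4, the phospholipid flippase of the canaliculus, at 56.7 to 81.2 FPKM in Con (median 65.7) and 45.5 to 65.1 FPKM in Exe (median 53.6), with 4 Exe mice below all Con mice (log2 fold change -0.26, SE 0.10, exact permutation p = 0.0433, adjusted p = 0.793 from limma). It no longer passed with FPKM rescaled to an equal sum per mouse, or without Con 2, Con 3 or Exe 1, where its log2 fold change kept its sign (-0.31 to -0.20 over all 21 alternatives). The largest estimates in size were 0.32 for Slc51b, a subunit of the basolateral exporter (SE 0.27, adjusted p = 0.929 from limma), and -0.30 for the uptake carrier Slco1a4 (SE 0.29, adjusted p = 0.932 from limma). Under the same rescaling, 10 of the 15 were above 0, so no direction can be given for this list. Abcc4 and Slc51a were too low to be tested and Fabp6 was not among the genes listed.

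Of 18 other regulators, 15 were tested, 5 with a log2 fold change above 0 and 10 below (median -0.057), and 0 passed an unadjusted p of 0.05 (smallest adjusted p from limma 0.833). The largest estimates were 0.33 for Nr1i3 (CAR), a xenobiotic receptor (SE 0.17, adjusted p = 0.833 from limma, exact permutation p = 0.121), and -0.27 for Cebpb (SE 0.21, adjusted p = 0.924 from limma). The factors named beside the promoters had log2 fold changes of -0.12 for Hnf4a (SE 0.11) and -0.057 for Nr5a2 (SE 0.092). Rxra, the partner of FXR, had -0.060 (SE 0.058), and the hepatic receptor pair for Fgf15 had -0.073 for Fgfr4 (SE 0.064) and 0.043 for Klb (SE 0.15). Fgf15, which the ileum secretes, did not exceed 0.04 FPKM in any mouse, and Gpbar1 and Ppargc1a were also too low to be tested. Of 8 ileum markers, 5 were among the genes listed. Their sum, mostly Fabp2, was 37.5 to 58.2 FPKM in Con and 40.2 to 67.7 FPKM in Exe, with Cdx2 at or below 0.03 FPKM.

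**Figure D5:**
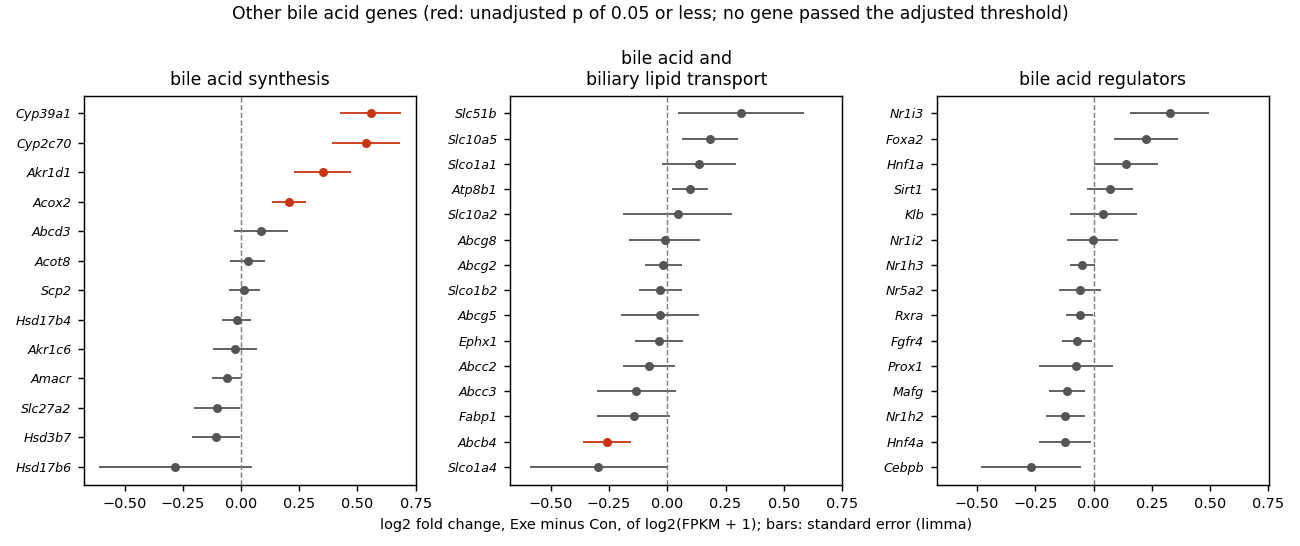
Log2 fold change (Exe minus Con, of log2(FPKM + 1)) of the other genes of bile acid synthesis (13), transport (15) and regulation (15), with bars for the standard error from limma and red for an unadjusted p of 0.05 or less. The red genes are Cyp39a1, Cyp2c70, Akr1d1 and Acox2 on the right of 0 and Abcb4 on the left, and none passed the adjusted threshold.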

How the data were processed

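Per the paper's methods, paired-end reads of total liver RNA were sequenced on the DNBseq platform, filtered for quality and aligned to the mouse genome GRCm39 with HISAT. The submitters' processing notes also list Bowtie2 and mm10 without a role. The authors deposited FPKM to 2 decimals, 1 library per mouse. How the FPKM were computed, from which annotation and with what scaling across mice, is not given in the sources used here. The authors tested genes with DESeq, which needs counts, and FPKM are not counts. With that test the paper reports genes that differed between the groups after adjustment, in both directions. The result that no gene passed adjustment in the main fit here therefore holds for limma on FPKM alone.

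Groups came from the sample titles. A pseudocount of 1 was added, and genes with at least 1 FPKM in at least 6 of 12 mice were fitted in limma 3.58.1 (R 4.3.3) with group as the only term, a variance trend and Benjamini-Hochberg adjustment over 10241 genes. Log2 fold changes refer to log2(FPKM + 1), which understates low genes. Single values were compared by exact two-sided permutation over 924 divisions of the mice (smallest p 0.00216). Correlations used 100000 permutations. These ran in Python 3.11.15 (scipy 1.17.1, numpy 2.4.6, pandas 2.3.3), and plots were drawn with matplotlib 3.10.9. The fit and the test of spread were tested on simulated data. Promoters came from RefSeq (GRCm38.p6), a build other than that of the files, so no value was placed by coordinate.

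The 10 genes and the lists were chosen with earlier results of these data known. Named genes were the 10 genes, the pathway genes past an unadjusted p of 0.05 or, where fewer than 2 passed, the 2 largest changes in size, the highest gene of each other list, genes whose level stood beside a result, and the 3 genes most like Cyp7a1, Cyp8b1, Slc10a1 and Nr0b2. Abcb4, Hsd3b7, Hnf4a, Nr5a2, Rxra, Fgfr4, Klb, Nr1d1, Dbp, Cps1 and Crp were named after their values were seen. So were Muc1, Tff2, Epcam, Krt7 and Bhlhe41. Lists of perivenous genes (highest Cyp2e1) and periportal genes (highest Ass1) were also summed. The perivenous sum was 5435 to 6767 FPKM in Con and 4953 to 7531 FPKM in Exe, and the periportal sum was 6209 to 6997 and 5461 to 7352 FPKM. The highest acute-phase gene was Hpx and the highest clock gene Dbp. Alternatives were other scalings, filters, a pseudocount of 0.1, robust variances, a replicate block and mice left out. Leaving each mouse out of the test of spread was chosen after seeing the data.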

Additional observations from a re-analysis of the deposited data

Results flagged for a closer look

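In 46 sets of 6 mice, made of the 10 genes, 8 other named pathway genes and 5 ratios in each group, 2 values stood far from the other mice of their group by Dixon's ratio (critical value 0.625), where chance gives about 2.3, or 1 in 20. Both were the ratio of Cyp8b1 to Cyp7a1. For it Dixon's ratio was taken on the ratio of FPKM itself, not on its log2 as in the tests between groups. High values stand out less on a log2 scale, on which no flags are given here. The chance rate holds for normally distributed values. In Con 4 it was 18.71, against 6.404 to 9.36 in the other 5 Con mice (Dixon's ratio 0.76). In Exe 4 it was 36.78, where Dixon's ratio was 0.68 and the remaining 5 Exe mice lay at 2.006 to 13.05. Each of these mice held the lowest Cyp7a1 of its group. Con 4 also held the highest Cyp8b1 of its group, while Cyp8b1 in Exe 4 lay within the range of the other Exe mice.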

How the results depend on the processing

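Of 449 values under the alternatives, 428 stayed within their limits, which were the same sign and the same side of an adjusted p of 0.05 for fold changes and ratios, and within 1.5 times the count for counts. Such values could still move, as Cyp7a1 did from 0.31 to 0.70 without Exe 4. No bile acid gene reached an adjusted p of 0.05 under any of them (lowest 0.516, Cyp27a1 without Exe 5). Without the filter, 1 gene of the whole table did, D630003M21Rik (adjusted p = 0.0476 from limma), which is named after its value was seen. The count of the 10 genes past an unadjusted p of 0.05 was 0 with quantile normalization and 0 to 3 with each mouse left out, the 3 being Cyp8b1, Nr0b2 and Baat without Con 5. The numbers in the titles gave no sign of pairing (r of same-numbered mice -0.478 to 0.165, over 0.1 for 1 of 6 pairs). Such r cannot exclude a pairing, and the labels do not name one. With the replicate number as a block the count was 0 of 10, Baat being lost at a log2 fold change of 0.13, and 567 in place of 636 over all genes. Transport genes above 0 numbered 10 with rescaling to an equal sum, and 5 to 10 with each mouse left out (10 without Exe 5, 8 without Con 3). Synthesis genes above 0 numbered 5 to 9, regulators 4 to 7 and bile acid genes 6 or 7 with each mouse left out. Log2 fold changes that changed sign were those of Nr1h4 (0.012 rescaled, and -0.093 to 0.056 with each mouse left out, above 0 without Con 5, Exe 3 or Exe 4), Slc27a5 (-0.039 with quantile normalization) and Cyp7b1 (-0.14 to 0.067, the latter without Exe 2). The log2 difference of Abcb11 to Slc10a1 ran from -0.11 to 0.064, above 0 without Con 2, Con 4, Exe 1 or Exe 2. The cause was not tested. The count of pairs past adjustment was 0 under each alternative run. The unknown depth in reads limits low genes such as Cyp39a1, and 6 mice per group limit Cyp7a1, Cyp8b1 and Nr0b2, whose intervals were widest.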
